A study of Homo sapiens with 9 samples.

Results

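MEST and 9 other genes known from studies of genomic imprinting (COPG2, PEG10, SGCE, DLK1, MEG3, PEG3, IGF2, H19 and NNAT) were followed across 9 RNA samples of SKNO-1, a human acute myeloid leukaemia (AML) cell line. They were 10 of the 25680 gene symbols in the count files. Each gene was found by its symbol and read from its RefSeq transcript with the highest total count, while all 6 transcript rows of MEST were read. MEST was chosen because of its higher values in the knockdown samples than in the control samples, so its values against the control are a description and support nothing. The other 9 genes were chosen as known imprinted genes or neighbours, and COPG2 and NNAT, which had enough counts, were tested. The genes formed a set of imprinted genes and neighbours by prior knowledge, and only 3 of the 10 had enough counts to be compared.

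All samples carried the AML1-ETO (RUNX1-RUNX1T1) fusion, labelled AML-ETO. The 3 groups of 3 samples were the control, labelled EV, and cells with either of 2 short hairpin RNAs (shRNAs) against ASXL2, a chromatin-associated protein of the additional sex combs family, labelled SH2 and SH3. The study describes its control as a control shRNA, and the labels do not explain EV. The study's methods give biological triplicates, its cell culture section a medium with foetal serum and GM-CSF, and the labels number the samples of each group 1, 13 and 25 with no word on what the numbers stand for. The extraction text on the labels speaks of sorted bone marrow cells rather than of the named cell line. ASXL2 was 48.8% ± 4.26 (SD, n = 3) of the same-numbered control sample in SH2 and 45.8% ± 8.13 (SD, n = 3) in SH3. Totals were 27714431 to 35406063 counts per sample with 1 transcript per gene. Of 9 markers of myeloid blasts 8 had enough counts to be tested (CD34 had not), with a summed level of 7376 to 11481 CPM (the count scaled to the effective size of the library).

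An imprinted gene is transcribed mainly from the copy inherited from one parent, because DNA methylation laid down in the egg or the sperm at a control region is kept through cell division. MEST, also called PEG1, is described as transcribed mainly from the paternal copy. It encodes a membrane protein of the alpha/beta hydrolase family that is abundant in embryonic mesoderm. The counts do not tell the parental copies apart, so no value here bears on imprinting itself.

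MEST has several start sites, and the sequences before 3 of them are shown because the transcripts annotated for the gene begin at different starts. In the GENCODE annotation of GRCh37 the gene spans 130126012 to 130146306 of chromosome 7, plus strand. The starts at 130126012 and 130126183 lie upstream, and those at 130131170 and 130131926 lie downstream inside the first intron of the upstream transcripts. The windows hold the 250 bases before a start in the RefSeq promoter table (GRCh38.p14) and were placed on GRCh37 by an exact and single match on that chromosome; RefSeq starts can differ by some bases from those of GENCODE. CpG dinucleotides, the sites of DNA methylation, are in capitals.
MEST upstream start, chr7:130125766-130126015 (+): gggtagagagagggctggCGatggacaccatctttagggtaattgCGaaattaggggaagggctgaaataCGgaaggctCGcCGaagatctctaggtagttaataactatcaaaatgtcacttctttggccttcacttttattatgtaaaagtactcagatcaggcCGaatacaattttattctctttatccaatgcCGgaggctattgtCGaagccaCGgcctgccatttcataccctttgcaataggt
MEST middle start, chr7:130130920-130131169 (+): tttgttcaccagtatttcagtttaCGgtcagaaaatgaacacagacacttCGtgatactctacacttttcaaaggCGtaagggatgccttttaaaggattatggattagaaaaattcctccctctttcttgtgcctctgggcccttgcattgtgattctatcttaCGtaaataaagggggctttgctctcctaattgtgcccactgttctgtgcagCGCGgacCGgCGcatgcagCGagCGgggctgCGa
MEST downstream start, chr7:130131649-130131898 (+): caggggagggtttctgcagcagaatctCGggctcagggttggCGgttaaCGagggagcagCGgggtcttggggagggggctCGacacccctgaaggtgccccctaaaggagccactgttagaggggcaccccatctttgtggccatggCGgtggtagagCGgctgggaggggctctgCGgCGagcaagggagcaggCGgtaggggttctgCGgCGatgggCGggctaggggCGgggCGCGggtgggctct
The upstream window held 9 CpG, the middle window 11 and the downstream window 16, read as CG, which is the same on both strands. At least as many were held by 54.1%, 50.3% and 41.0% of the 35116 promoters listed, whose median was 11. The table holds 5 MEST windows, and the 2 not shown overlap the upstream and downstream windows, end closer to the GENCODE starts at 130126183 and 130131926, and held 20 CpG each, a number reached by 32.4% of the promoters. The upstream window overlaps the span of MESTIT1, a noncoding gene on the opposite strand, at 130125883 to 130130874. So does the window not shown that overlaps it. Both also hold the first bases of MEST after the GENCODE start at 130126012. The middle and downstream windows lie outside the MESTIT1 span. No methylation was measured in these files.

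MEST also hosts the microRNA gene MIR335, at 130135952 to 130136045 on the same strand. Its mature products are shown with the seed, bases 2 to 8, in capitals, as RefSeq gives them, because they are the other product of the MEST locus.
hsa-miR-335-5p: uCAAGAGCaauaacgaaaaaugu
hsa-miR-335-3p: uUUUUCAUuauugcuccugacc
The MIR335 row held 0 to 2 counts per sample. Libraries of long RNA do not measure mature microRNAs, so the level of these products was not measured.

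MEST was the most abundant of the 10 genes. In EV its normalized read count was 191, 179 and 228 CPM in the samples numbered 1, 13 and 25. In SH2 it was 290, 274 and 291 CPM, and in SH3 it was 250, 291 and 301 CPM. The highest control sample lay below the lowest knockdown sample, so the groups did not overlap. Such a separation of the 6 knockdown from the 3 control samples, in either direction, was found in 4.77% of all 14199 genes tested. The group levels were 199 ± 25.3 CPM in EV, 281 ± 27.0 CPM in SH3 and 285 ± 9.42 CPM in SH2 (mean ± SD, n = 3 each). In this order the neighbours SH3 and SH2 differed by less than the spread of either group.

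**Figure D1:**
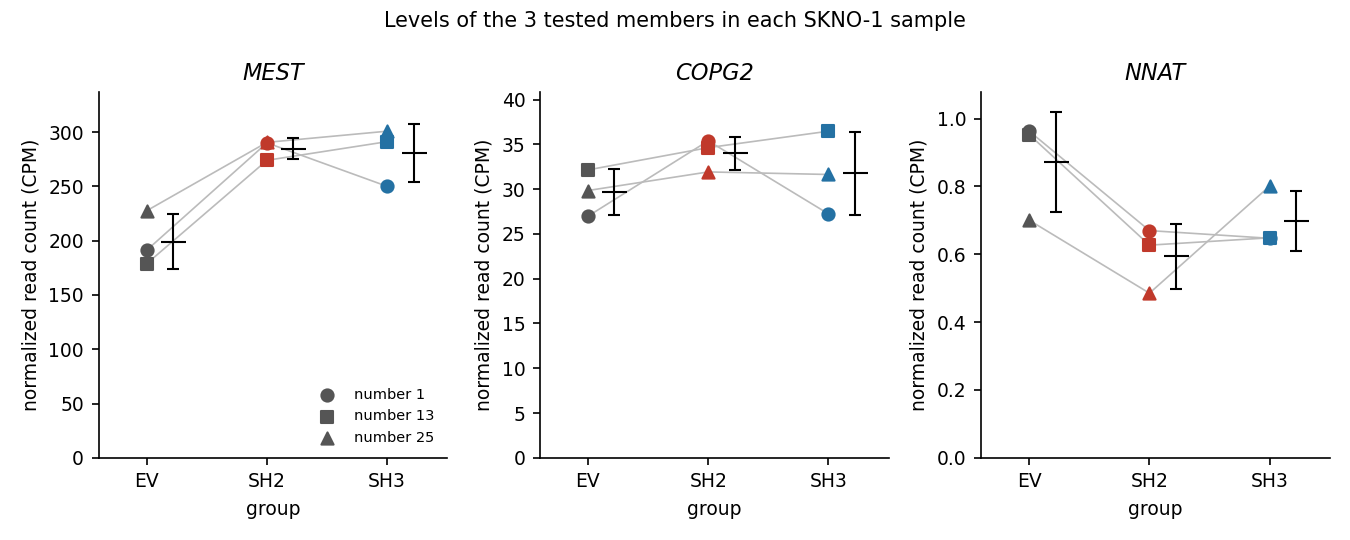
Normalized read count in CPM (vertical axis, from 0) of MEST, COPG2 and NNAT in each sample by group, with symbols for the replicate numbers 1, 13 and 25, grey lines joining samples of the same number, and black bars for the mean ± SD of 3 samples. The 6 knockdown samples of MEST lie between 250 and 301 CPM, above all 3 control samples, while the groups overlap for COPG2 and NNAT.

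The log2 fold change of MEST was 0.52 (SE 0.11) for SH2 against EV. It was 0.49 (SE 0.11) for SH3 against EV and 0.51 (SE 0.10) for the mean of both shRNAs. The ratio of group means was 1.43-fold for SH2 and 1.41-fold for SH3. These contrasts share the control samples and are not independent of each other. When any sample or replicate number was left out, the log2 fold change stayed between 0.44 and 0.62 for SH2 and between 0.40 and 0.61 for SH3.

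Compared by number, MEST was higher than in the control sample in all 6 knockdown samples. The log2 ratios to the same-numbered control were 0.60, 0.62 and 0.35 for SH2 and 0.39, 0.70 and 0.40 for SH3, at numbers 1, 13 and 25. The smallest ratio of SH2 was at number 25, where the control level was highest, and the largest of both shRNAs was at number 13, where the control level was lowest. A fit that took the replicate number as a block gave log2 fold changes of 0.52 (SE 0.085), 0.50 (SE 0.085) and 0.51 (SE 0.075) for SH2, SH3 and both shRNAs.

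**Figure D2:**
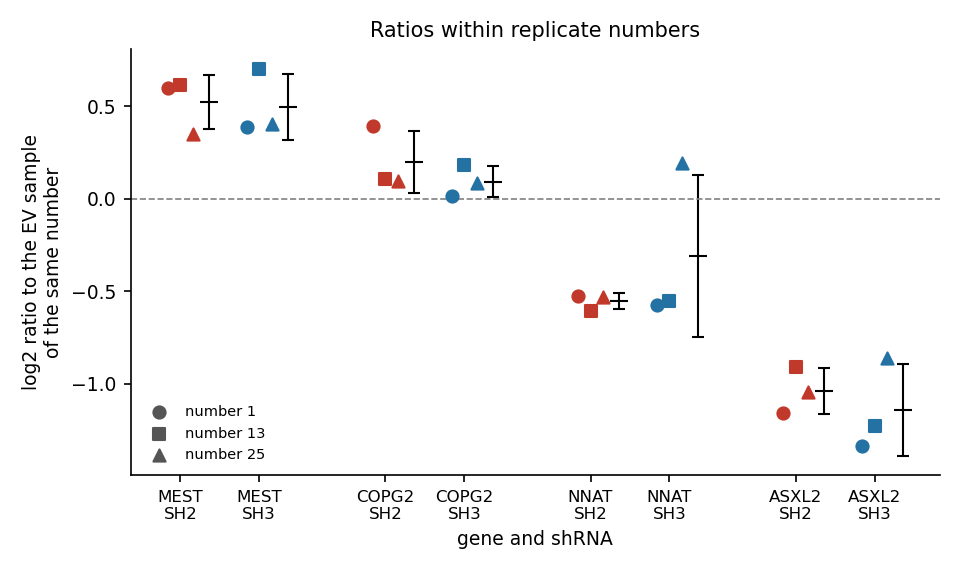
Log2 ratio of each knockdown sample to the EV sample of the same number (vertical axis) for MEST, COPG2, NNAT and the knockdown target ASXL2, with symbols for the numbers 1, 13 and 25 and black bars for the mean ± SD of 3 ratios. All 6 MEST ratios lie between 0.35 and 0.70, and the NNAT ratios are below 0 except that of SH3 at number 25, at 0.19.

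The shRNAs were also compared with each other, a contrast that did not choose MEST. The log2 fold change of SH3 against SH2 was -0.02 (95% interval -0.28 to 0.24), with an adjusted p of 0.998 in the edgeR fit across all genes. With the block it was -0.02 (95% interval -0.21 to 0.16), with an adjusted p of 0.918 by edgeR. A difference between the shRNAs beyond these intervals was therefore not seen, while smaller ones could not be told from 0. The estimate changed sign when number 1 was left out, to 0.064.

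The 6 RefSeq rows of MEST gave nearly the same values. In every sample the lowest row held 99.5% to 99.7% of the counts of the highest, NM_177524, a difference of 15 to 43 counts. The highest row read 6953, 5257 and 6825 counts in EV, 8663, 8743 and 8383 in SH2, and 7343, 9430 and 8263 in SH3. For both shRNAs against EV the log2 fold change of the rows was 0.50 to 0.51 in a fit of 30546 transcript rows. Reads shared by the transcripts were counted in each of them, so the rows did not separate the starts whose sequences are given above.

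Relative to its length, MEST was among the more abundant genes of these cells. Its mean over the 9 samples was 96.3 CPM per kilobase of transcript, above 93.9% of the 12655 tested genes with a known transcript length. MEST took 0.0180% to 0.0298% of the counts of a sample. Among 24 tested imprinted genes with a usable length it ranked 3, after GNAS, which encodes the stimulatory G protein alpha subunit, at 645 CPM per kilobase, and SNRPN, which encodes a small nuclear ribonucleoprotein, at 96.8. The values of SNRPN and MEST overlapped across samples.

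**Figure D3:**
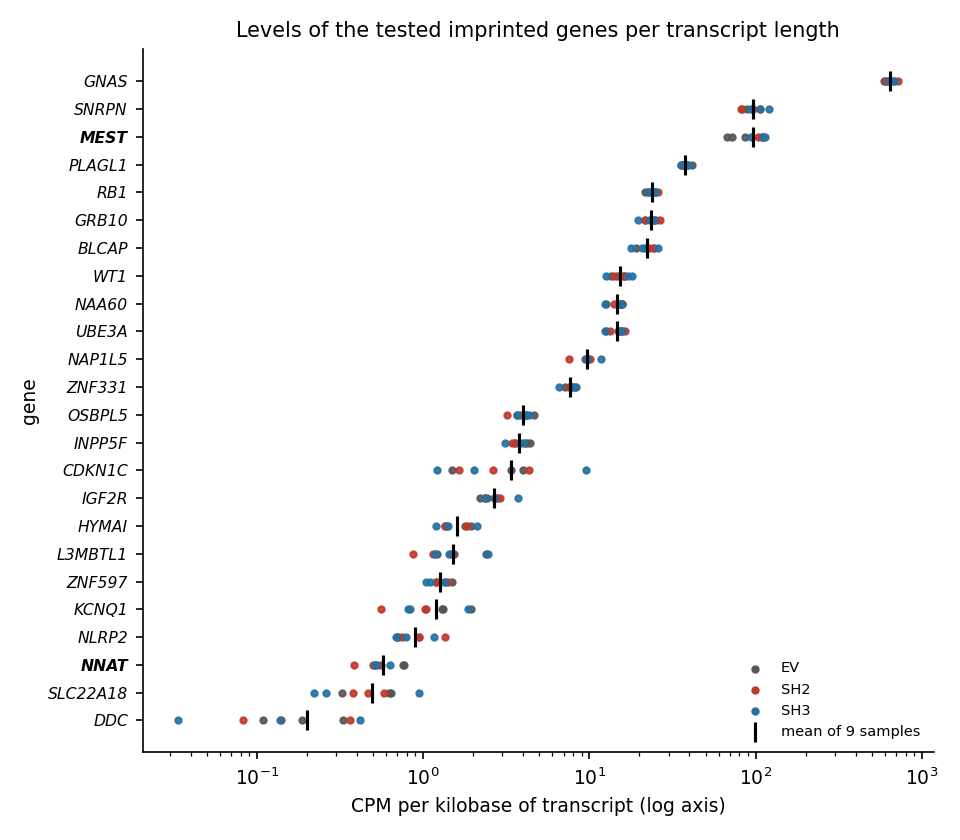
Level in CPM per kilobase of transcript (horizontal log axis) of 24 tested imprinted genes, with 1 point per sample coloured by group and a black tick at the mean of 9 samples; members of the set are in bold. MEST ranks 3 at 96.3 and NNAT ranks 22 at 0.573, while COPG2, SNURF, KCNQ1OT1 and MCTS2P are left out because the length of their counted transcript was uncertain or not known or their counts repeated those of another gene.

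Transcript length moved with the contrast over all genes. In 5 classes of 2531 genes, the median for both shRNAs, on the log2 scale, fell from 0.11 in the shortest class to -0.10 in the longest. MEST, at 2646 bases, was in the middle class, whose median was 0.02. In that class 2.05% had a higher value than MEST. MEST was chosen for being high in this contrast, so this share is a description, and the part of length was not tested. With the block and a correction of each sample for length, the log2 fold change of MEST was 0.48 (SE 0.070). Markers of stromal cells, which express MEST in embryonic tissue, were near 0: of 7 markers PDGFRB alone was tested and COL1A2 had no count. Their summed level was 1.16 to 2.13 CPM in EV, 1.07 to 1.70 in SH2 and 1.08 to 1.97 in SH3. The summed level of 3 trophoblast markers was at most 0.102 CPM, that of 5 epithelial markers at most 0.136 CPM and that of 3 erythroid markers at most 0.0335 CPM. Not all other panels were near 0. The 4 endothelial markers summed to 4.09 to 9.60 CPM, with PECAM1, VWF and KDR tested. The 5 T cell markers summed to 379 to 654 CPM, with CD4 and CD8A tested and no count of CD3E or CD3G.

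COPG2, which encodes a gamma subunit of the COPI vesicle coat, lies next to MEST on the opposite strand, at 130146079 to 130353588, and the ends of the genes overlap by 228 bases. The study's methods, written for sorted mouse cells, describe libraries that do not keep strand, so reads in the overlap cannot be told apart. COPG2 read 27.0, 32.1 and 29.8 CPM in EV, 35.4, 34.6 and 31.9 CPM in SH2, and 27.2, 36.5 and 31.6 CPM in SH3. The groups overlapped, and the lowest knockdown sample, SH3 number 1, lay between the lowest and the middle control.

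The log2 fold change of COPG2 was 0.20 (SE 0.12, 95% interval -0.08 to 0.48) for SH2 against EV, with an edgeR adjusted p of 0.966. It was 0.10 (95% interval -0.18 to 0.38) for SH3, with an edgeR adjusted p of 0.981, and 0.15 (95% interval -0.10 to 0.39) for both, with an adjusted p of 0.892 by edgeR. With the block the 95% intervals were 0.0013 to 0.40 for SH2, -0.10 to 0.30 for SH3 and -0.03 to 0.32 for both. The interval for SH2 thus left out 0 narrowly, before any adjustment for the number of genes. The adjusted p by edgeR with the block was 0.265, 0.594 and 0.311. COPG2 therefore did not pass the threshold in either fit. For SH3 the estimate turned to -0.0099 without SH3 number 13. Summed over its rows, COPG2 gave 0.08 for both shRNAs. With the block and the correction for length, its log2 fold change was 0.13 for SH2 and 0.03 for SH3, against 0.20 and 0.10 with the block alone. The length of its counted transcript is uncertain, and the part of length was not tested.

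NNAT encodes neuronatin, a small membrane protein of the endoplasmic reticulum, and lies on chromosome 20 at 36149608 to 36152092, wholly inside the span of BLCAP on the other strand. It was close to the lower limit of what could be tested. It read 35, 28 and 21 counts in EV, 20, 20 and 14 in SH2, and 19, 21 and 22 in SH3. On the normalized scale these were 0.96, 0.95 and 0.70 CPM, then 0.67, 0.63 and 0.49 CPM, and then 0.65, 0.65 and 0.80 CPM. All 3 SH2 samples lay below all 3 controls, while SH3 number 25 lay above the lowest control.

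The log2 fold change of NNAT was -0.55 (SE 0.27, 95% interval -1.15 to 0.05) for SH2, with an edgeR adjusted p of 0.951. It was -0.32 (95% interval -0.92 to 0.27) for SH3, with an edgeR adjusted p of 0.975, and -0.44 (95% interval -0.95 to 0.07) for both, with an adjusted p of 0.806 by edgeR. With the block the 95% intervals were -1.14 to 0.04 for SH2, -0.89 to 0.26 for SH3 and -0.93 to 0.06 for both. The adjusted p by edgeR with the block was 0.290, 0.531 and 0.300. The intervals are wide at these counts, and no change of NNAT was detectable at this depth. BLCAP, which shares its position and encodes a protein first described in bladder cancer, read 36.2 to 52.3 CPM, with a log2 fold change of 0.11 and an edgeR adjusted p of 0.945 for both shRNAs.

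The shRNAs did not differ from each other past the threshold in COPG2 or NNAT. For SH3 against SH2 the log2 fold change was -0.10 (95% interval -0.38 to 0.18) for COPG2 and 0.23 (95% interval -0.38 to 0.84) for NNAT, each with an edgeR adjusted p of 0.998.

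The other 7 genes were not expressed at a level that could be compared. MEG3, a long noncoding RNA transcribed from the maternal copy on chromosome 14, and PEG3, a paternally expressed zinc finger gene on chromosome 19, had no count in any sample or transcript row. A count of 0 allows up to 3 counts, or 0.0825 to 0.109 CPM depending on the sample. Such limits cover counting error only, since reads without molecular identifiers are not independent molecules.

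The 5 remaining genes had 1 to 6 counts over all 9 samples and never more than 2 in a sample, at most 0.0728 CPM. PEG10, a gene derived from a retrotransposon and needed for the placenta, had 2 counts, in EV number 25 and SH2 number 25. SGCE, which encodes epsilon-sarcoglycan and starts next to PEG10 on chromosome 7, had 6 counts in 5 samples. DLK1, a noncanonical Notch ligand near MEG3, had 4 counts in 3 knockdown samples. IGF2, a foetal growth factor on chromosome 11, had 1 count, in SH2 number 25, and H19, the noncoding gene beside it, had 2 counts, both in SH3 number 1. These values are under the limit that a count of 0 allows, so no difference was detectable and no fold is given.

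The calls over all genes give the background for these results. Without the block no gene passed an adjusted p of 0.05 by edgeR in any of the 4 contrasts, a share of 0% each. This includes the knockdown target ASXL2, at log2 fold changes of -1.03 for SH2 and -1.12 for SH3 (edgeR adjusted p = 0.808 and 0.612). With the block the edgeR adjusted p of ASXL2 was 0.0047 and 0.0041. A high adjusted p without the block therefore does not show that a gene was unchanged. Genes with an unadjusted p under 0.05 numbered 762 for SH2 against EV, 723 for SH3, 942 for both and 293 for SH3 against SH2. DESeq2 without the block called 25 (0.199% of the genes it gave an adjusted p), 26 (0.183%), 56 (0.447%) and 11 (0.0775%). With the block, edgeR called 40 genes for SH2 (0.282%), 59 for SH3 (0.416%), 156 for both (1.1%) and 15 for SH3 against SH2 (0.106%). DESeq2 with the block called 374 (3.27%), 474 (4.04%), 622 (4.96%) and 152 (1.24%). In the 3 contrasts with EV the calls of DESeq2, and of edgeR with the block, included 1 of the 10 genes, MEST, and in SH3 against SH2 none. MEST was chosen for these values, so its calls against EV are no independent test and nothing is read from them.

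Of 56 other imprinted genes listed for comparison, 55 were in the files, 21 had no count in any sample, 9 had some counts but too few, and 25 were tested. Their median log2 fold change for both shRNAs was 0.01, as for all genes, with 13 above 0 and 12 below. None passed the threshold in either edgeR fit in any contrast, nor by DESeq2 without the block. For both shRNAs 2 of the 25 had an unadjusted p under 0.05 in the edgeR fit without the block, against 942 of all 14199 genes. With the block 6 of the 25 had one, SNRPN and SNURF among them, against 2902 of all genes. DESeq2 with the block called SNRPN and SNURF for SH3 against EV. SNRPN and SNURF share a transcript and had identical counts, so they are 1 measurement.

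The most abundant of these genes differed little. GNAS read 1095 to 1191 CPM in EV, 1112 to 1325 CPM in SH2 and 1161 to 1266 CPM in SH3, and its fold change for both shRNAs was 0.10 in log2 units (edgeR adjusted p = 0.935, and 0.459 with the block). SNRPN and SNURF read 122 to 140 CPM in EV, 119 to 157 CPM in SH2 and 137 to 177 CPM in SH3. Their log2 fold change was 0.17 (edgeR adjusted p = 0.858, and 0.143 with the block).

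The largest fold changes were in genes of low level. KCNQ1OT1, a noncoding RNA that silences its neighbours on the paternal copy, read 1.46, 1.39 and 1.53 CPM in EV, 0.74, 0.78 and 0.87 CPM in SH2, and 1.40, 0.80 and 1.13 CPM in SH3. Its SH2 samples lay below every control and its SH3 samples overlapped them. The log2 fold change was -0.88 (SE 0.26) for SH2, with an edgeR adjusted p of 0.808, and 0.116 with the block. KCNQ1, the potassium channel gene in which it lies on the opposite strand, gave -0.58 on the log2 scale for both shRNAs (edgeR adjusted p = 0.825, and 0.176 with the block). Reads of these overlapping genes cannot be told apart without strand. L3MBTL1, which encodes a reader of methylated histones, read 8.20, 4.18 and 5.24 CPM in EV, 5.02, 2.98 and 3.95 CPM in SH2, and 8.41, 4.05 and 4.95 CPM in SH3. It followed the replicate numbers, highest at number 1 in each group, and its log2 fold change was -0.29 for both (edgeR adjusted p = 0.938, and 0.193 with the block). INPP5F, a phosphoinositide phosphatase gene named after its values were seen, was the 1 of 25 genes of this list whose groups did not overlap, close to the 4.77% of all genes, with 20.4 to 21.8 CPM in EV and 15.5 to 19.9 CPM in the knockdown samples (edgeR adjusted p = 0.742, and 0.120 with the block).

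**Figure D4:**
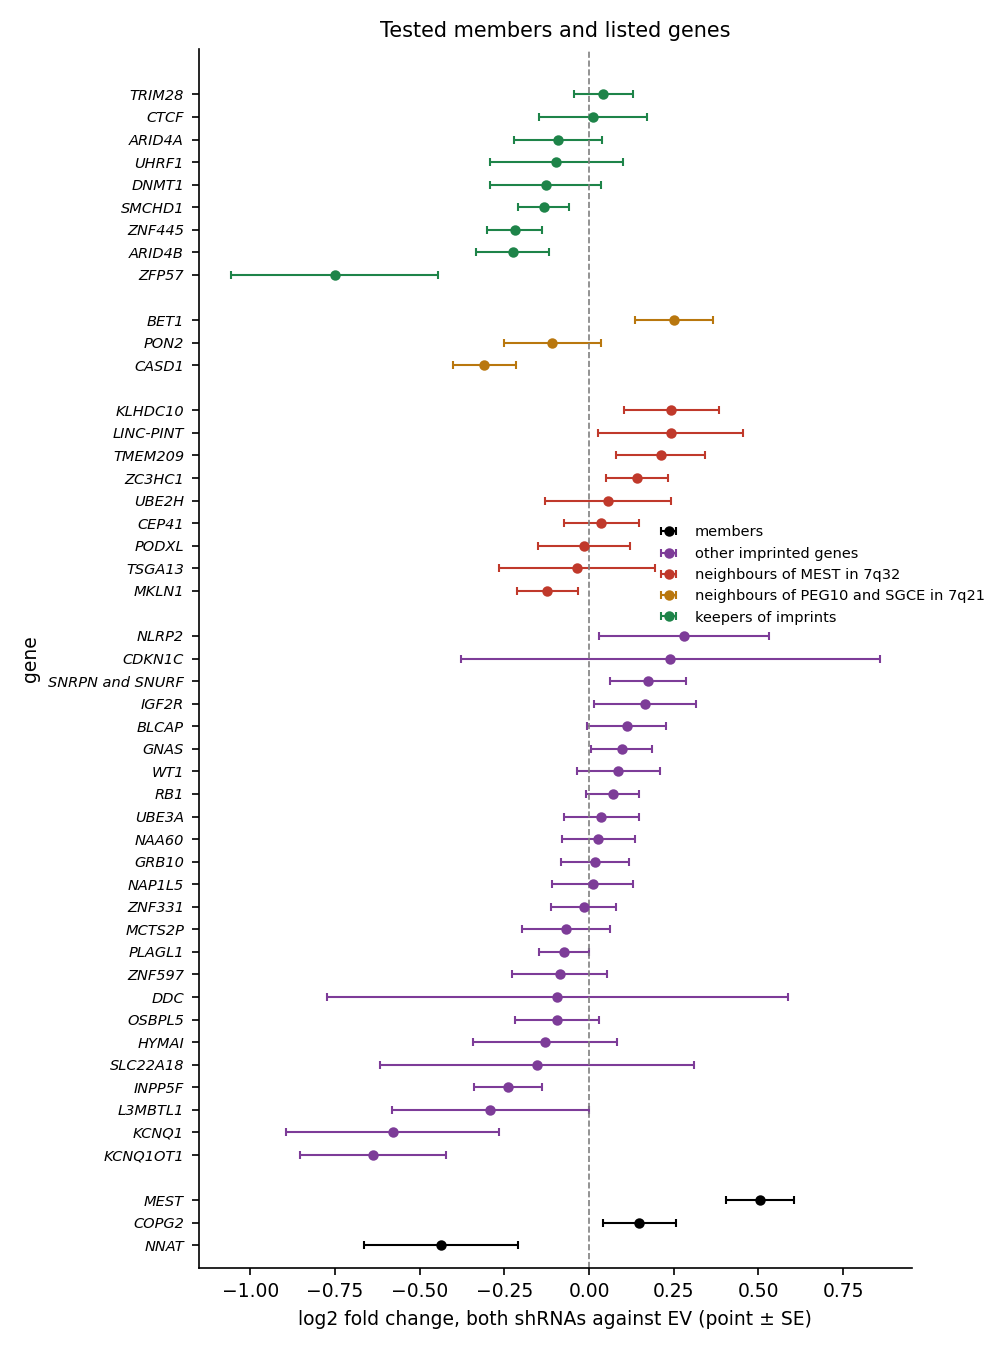
Log2 fold change for both shRNAs against EV (horizontal axis, point ± SE from the edgeR fit without the block) of every tested gene of the set and of the listed imprinted genes, chromosomal neighbours and genes that keep imprints. MEST lies at 0.51, and the 25 other imprinted genes spread on both sides of 0 from -0.64 for KCNQ1OT1 to 0.28 for NLRP2.

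Genes around MEST were read to see whether its neighbourhood moved with it. Of 23 listed neighbours in 7q32, 20 were in the files and 10 were tested, COPG2 among them. Their median log2 fold change was 0.10 for both shRNAs, against 0.01 for all genes, with 7 above 0 and 3 below, and none passed the threshold in either edgeR fit or by DESeq2 without the block. At an unadjusted p under 0.05 for both shRNAs there was none in the edgeR fit without the block and 3 with it, where 2902 of all 14199 genes had one, and DESeq2 with the block called KLHDC10 for SH3 and for both shRNAs. In none of the 10 tested neighbours did the 6 knockdown samples stand apart from the controls, as they did in 4.77% of all genes. In a list of 10 genes a count of 0 is near that share. CEP41, a centrosomal gene and the nearest tested gene on the other side of MEST, 43737 bases away, read 20.5 to 23.1 CPM in EV and 18.7 to 24.9 CPM in the knockdown samples, with a log2 fold change of 0.04. MESTIT1, the antisense gene at the upstream MEST start, had 3 to 10 counts in each sample, too few to test.

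Among the neighbours chosen by level or size of change, KLHDC10, which encodes a substrate receptor of a ubiquitin ligase, had a log2 fold change of 0.24 (edgeR adjusted p = 0.849, and 0.0911 with the block). TMEM209, which encodes a nuclear envelope protein, had 0.21 (edgeR adjusted p = 0.858, and 0.103 with the block). LINC-PINT, a long noncoding RNA induced by p53, had 0.24, UBE2H, a ubiquitin-conjugating enzyme, 0.06, and MKLN1, which encodes muskelin, -0.12. Each of these log2 fold changes was smaller than that of MEST, and the differences from MEST were not tested.

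Around PEG10 and SGCE in 7q21, all 11 listed neighbours were in the files, 8 had no count and 3 were tested. CASD1, which encodes a sialic acid O-acetyltransferase, read 32.4 to 35.5 CPM in EV, 25.7 to 27.3 CPM in SH2 and 25.2 to 31.9 CPM in SH3. Its knockdown samples lay below all controls, as did those of 2.61% of all genes, with a log2 fold change of -0.31 (SE 0.093) for both (edgeR adjusted p = 0.623, and 0.0667 with the block). BET1, a vesicle fusion gene, had 0.25 and PON2, a lactonase gene, -0.11, with edgeR adjusted p of 0.772 and 0.965. DESeq2 with the block called CASD1 for SH2 and for both shRNAs.

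Imprints are kept by proteins that guard DNA methylation at the control regions. Of 13 such genes listed, 1 had no count, 3 had too few, and 9 were tested. Their median log2 fold change was -0.13 for both shRNAs, against 0.01 for all genes, with 2 above 0 and 7 below, and none passed the threshold in either edgeR fit or by DESeq2 with or without the block. For both shRNAs 2 of the 9 had an unadjusted p under 0.05 in the edgeR fit without the block, against 942 of all 14199 genes. With the block 3 of the 9 had one, against 2902 of all genes. In 3 of the 9, ZFP57, ZNF445 and SMCHD1, all knockdown samples lay below all controls, for ZFP57 narrowly, and this held for 2.61% of all genes. ZNF445, SMCHD1, ARID4A and ARID4B have transcripts in the longest of the 5 length classes, whose median was -0.10, and the part of length in these values was not tested. ZFP57, the zinc finger protein that binds methylated control regions, was near the limit, with 10 to 18 counts in EV, 7 to 9 in SH2 and 5 to 11 in SH3, and a log2 fold change of -0.75 (edgeR adjusted p = 0.742, and 0.228 with the block). ZNF445, which acts at the same regions, read 82.3 to 99.1 CPM in EV, 72.0 to 82.0 CPM in SH2 and 76.8 to 79.8 CPM in SH3, with a log2 fold change of -0.22 (edgeR adjusted p = 0.702, and 0.107 with the block). SMCHD1, a chromatin protein of the inactive X chromosome and imprinted clusters, had -0.13 (edgeR adjusted p = 0.846, and 0.252 with the block). ARID4B, a partner of the retinoblastoma protein, had -0.23 (edgeR adjusted p = 0.785, and 0.0906 with the block). TRIM28, the corepressor that zinc finger proteins such as ZFP57 recruit, had 0.04, and DNMT1, the maintenance DNA methyltransferase, had -0.13. The counts hold no methylation, so whether the imprints were kept was not measured.

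The genes most like MEST were found by the Pearson correlation of log2 CPM over the 9 samples, which shares the libraries and the 3 groups and is given as a description. The highest were PRDX3 (0.984), GPKOW (0.966), MRPL23 (0.961), NR2F6 (0.961) and POU4F1 (0.954). The lowest were CCDC92 (-0.987), ZFYVE16 (-0.948), TAF1 (-0.945), SNHG4 (-0.940) and NLRC3 (-0.933). PRDX3, a mitochondrial peroxiredoxin, had mean levels of 97.1 CPM in EV, 175 CPM in SH2 and 163 CPM in SH3, and CCDC92, a coiled-coil protein, 3.17, 1.88 and 1.89 CPM. After the mean of each replicate number was taken out, PRDX3, POU4F1 and CCDC92 were again in these lists, beside MRPL55, PARP2 and WIBG at the high end and IL6ST, PER3, NDST2 and MCF2L2 at the low end. Of the tested members COPG2 had a correlation of 0.542 with MEST and NNAT -0.738, and these were 0.745 and -0.713 after the number means were taken out.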

How the data were processed

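Each deposited file gave unnormalized read counts, whole numbers in 48104 rows of RefSeq transcripts on hg19 (GRCh37). The submitters' processing notes name STAR, featureCounts and DESeq2 with no role or version, and the study's methods name Cuffdiff, so how these counts were made is not given in full in the sources used here. A read was counted in every transcript it matched, and 9509 symbols had more than 1 row, so the row with the highest total stood for each symbol. Members and lists were chosen with earlier results of these data known.

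Groups were compared by the quasi-likelihood F test of edgeR 4.0.16 (R 4.3.3; TMM scaling, filterByExpr at its default minimum of 10 counts and 15 in total, 14199 genes, Benjamini-Hochberg over all of them, threshold 0.05). All 9 samples entered 1 fit with 1 coefficient per group and 6 residual degrees of freedom. Standard errors are the log2 fold change divided by the square root of F, and intervals use the moderated degrees of freedom. Because the groups share the numbers 1, 13 and 25, deviations of log2 CPM from group means were correlated between samples. All 9 same-numbered pairs across groups had correlations of 0.398 to 0.731, and pairs of different number -0.616 to 0.306. Deviations within a group sum to 0, which lowers the latter when the former are high. The numbers were taken to pair the samples, and the same fit with the number as a block left 4 residual degrees of freedom. Within groups, chi-square per degree of freedom was 17.6 to 128, so no samples were merged. Totals over all rows were 62079356 to 79254366 counts.

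All 10 members were named. From each list the text names genes past the threshold and up to 3 each of highest level and of largest change. Alternatives were DESeq2 1.42.0, RLE scaling, no filter, summed rows, the compared groups alone, the block, the block with a correction for transcript length (known for 89.1% of tested genes), and leaving out samples or numbers. Lengths, positions and overlaps come from GENCODE lifted to GRCh37, in which the COPG2 transcript is partial. Sequences come from RefSeq tables.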

Additional observations from a re-analysis of the deposited data

How the results depend on the processing

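The log2 fold changes of MEST and NNAT against EV kept their direction under every alternative run. They were 0.40 to 0.62 for MEST and -0.68 to -0.20 for NNAT. No call of COPG2 or NNAT arose. DESeq2 gave NNAT no adjusted p for SH2, with or without the block, nor for SH3 with the block, so NNAT could not be called there. COPG2 for SH3 against EV ranged from -0.0099 (without SH3 number 13) to 0.20 when samples or numbers were left out. For SH3 against SH2 the same ranges were -0.072 to 0.064 for MEST, positive without SH2 number 25, SH3 number 1 or number 1, and -0.20 to 0.030 for COPG2, positive without SH3 number 1 or number 1. With the block and without number 1 they were 0.065 and 0.028. The cause was not tested. The number of genes called depended on the replicate block: 0 without it in each contrast, and 40, 59, 156 and 15 with it for SH2, SH3, both shRNAs against EV and SH3 against SH2. The block changed no other call of a member than that of MEST. The counts were 25, 26, 56 and 11 by DESeq2, 374, 474, 622 and 152 by DESeq2 with the block, and 6, 21, 13 and 13 with the block and the length correction. MEST was the 1 member called against EV with the block and by DESeq2 with and without it, and with the length correction for both shRNAs alone (1); it was chosen for these values, so these calls support nothing. Leaving out a sample or a number without the block gave 0 to 1 calls for SH3 and 0 to 2 for both shRNAs (2 without SH3 number 1). With the block and without number 1, 13 or 25, an alternative chosen after seeing the data, calls were 267, 9 and 0 for SH2, 341, 24 and 1 for SH3, 370, 7 and 1 for both, and 129, 61 and 0 for SH3 against SH2, with 1 member called against EV without number 1. Over the 6 MEST rows the log2 fold change centred on 0.50, and on 0.51 under the block. The 7 members under the filter had 0 to 6 counts in all, and NNAT 200, which sets their precision.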
